A study of Mus musculus with 8 samples.

Results

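The MEF2 transcription factor family has 4 genes in the mouse, Mef2a, Mef2b, Mef2c and Mef2d, and all 4 had a row among the 22000 gene rows of the deposited count table. The members were taken by name. MEF2 proteins bind A/T-rich DNA as dimers, through an amino-terminal MADS box and an adjoining MEF2 domain. Class IIa histone deacetylases hold MEF2 proteins in a repressing complex, and calcium entry releases them through kinases that export the deacetylases and through the phosphatase calcineurin. In the brain the family is known for roles in neuronal differentiation, survival and synapse number, and Mef2c is also made by microglia, the resident immune cells.

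Polyadenylated RNA of the whole cortex was sequenced in 8 libraries. Of these, 4 are labelled Mef2c heterozygous and 4, the controls, Mef2c wild type; each genotype has 2 males and 2 females, and no treatment is named. The labels used here do not say which part of Mef2c the altered allele lacks or changes, nor the strain or age, and summed gene counts hold both alleles together. The cortex is a mixture of cell types, so fewer cells of a type and less RNA per cell cannot be told apart in any value below.

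Library totals lay between 16092773 and 17841377 reads, and RNA integrity numbers between 8.6 and 9. The numbers in the titles fall into a lower and a higher run, with each sex and genotype once in either, and the labels do not say what the numbers or the runs stand for. Heterozygous replicate 4, labelled female, held 72 reads of 4 Y-linked genes (Eif2s3y, Kdm5d, Uty and Ddx3y), against 2150 to 2564 in the 4 male libraries and 0 to 3 in the other 3 female libraries. The member results are therefore also given without it. Cortical neuron markers were present in every library, and summed levels of 11 excitatory neuron markers lay between 7358 and 7872 CPM in libraries labelled heterozygous and between 6962 and 7734 CPM in those labelled wild type, CPM being read counts scaled to a common library size by TMM.

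The start of each member's coding sequence is shown because it encodes the MADS box, a stretch conserved across the family, where a read matching several members would be hardest to assign. The first 171 coding bases, 5′ to 3′, were taken from GENCODE release M21 transcripts of GRCm38, and capitals mark the bases that all 4 genes share.
Mef2a: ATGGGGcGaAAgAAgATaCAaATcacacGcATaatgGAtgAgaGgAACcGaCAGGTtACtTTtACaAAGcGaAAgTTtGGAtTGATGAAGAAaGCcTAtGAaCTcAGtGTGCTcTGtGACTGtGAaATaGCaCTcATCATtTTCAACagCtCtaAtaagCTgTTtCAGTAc
Mef2b: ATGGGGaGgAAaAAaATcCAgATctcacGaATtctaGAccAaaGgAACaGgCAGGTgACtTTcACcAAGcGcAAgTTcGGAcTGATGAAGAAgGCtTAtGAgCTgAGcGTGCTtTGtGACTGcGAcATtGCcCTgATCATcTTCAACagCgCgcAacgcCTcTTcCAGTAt
Mef2c: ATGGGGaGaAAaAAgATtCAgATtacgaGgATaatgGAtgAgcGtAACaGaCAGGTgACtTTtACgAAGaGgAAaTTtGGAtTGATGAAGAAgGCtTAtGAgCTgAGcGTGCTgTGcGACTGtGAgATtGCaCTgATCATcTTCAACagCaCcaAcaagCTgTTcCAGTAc
Mef2d: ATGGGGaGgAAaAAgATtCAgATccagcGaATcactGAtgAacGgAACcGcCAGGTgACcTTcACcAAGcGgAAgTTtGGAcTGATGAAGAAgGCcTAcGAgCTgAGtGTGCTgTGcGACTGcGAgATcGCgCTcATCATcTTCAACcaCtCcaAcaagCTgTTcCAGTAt
Of these 171 bases, 113 are the same in all 4 genes. Mef2c and Mef2d are identical at 141 bases (82.5%), Mef2a and Mef2c at 140 (81.9%), and Mef2a and Mef2b at 127 (74.3%), which is the lowest of the 6 pairs. The longest run shared without a mismatch by any transcripts of a pair is 31 bases for Mef2b and Mef2c, 28 for Mef2c and Mef2d, 17 for Mef2a and Mef2c and 16 for Mef2a and Mef2d. Lower-case bases break the capitals into short runs.

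The members lie on 4 chromosomes of GRCm38. Mef2c (ENSMUSG00000005583.16) spans chromosome 13 from 83504034 to 83667080 (plus strand), with 31 annotated transcripts, 27 of them coding. Mef2a (ENSMUSG00000030557.17) spans chromosome 7 from 67231163 to 67372858 (minus strand), and 302 bases of its exons overlap exons of Lysmd4 on the opposite strand. Mef2d (ENSMUSG00000001419.17) spans chromosome 3 from 88142372 to 88172086 (plus strand), and 531 exonic bases overlap the antisense transcript 1700113A16Rik. Mef2b (ENSMUSG00000079033.10) spans chromosome 8 from 70139711 to 70167488 (plus strand), where 62 exonic bases overlap Borcs8 on the same strand. The strand setting of the counting is not given in the sources used here, so reads in these overlaps cannot be assigned with certainty. No annotated gene overlaps Mef2c.

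In the libraries labelled heterozygous, Mef2c transcripts were higher, not lower, while Mef2a and Mef2d lay about 8% above wild type without passing the test and Mef2b was almost without reads. Of the 3 members that passed the filter on low counts, 1 was called, and it was higher, against 0.267% of all 13879 genes tested (0.13% higher). The filter removed Mef2b, so 1 of the 4 members was not tested.

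Mef2c, the gene named by the genotype, had 1233, 1336, 1391 and 1255 CPM in the libraries labelled heterozygous, against 1038, 939, 999 and 1003 CPM in those labelled wild type. The lowest library labelled heterozygous lay above the highest labelled wild type, a separation seen in 4.55% of all genes tested in either direction and in 2.16% in this one. The log2 fold change was 0.39, a 1.31-fold difference, with a 95% interval of 0.30 to 0.49 and a Benjamini-Hochberg adjusted p of 0.000154 by the quasi-likelihood test of edgeR. Without heterozygous replicate 4 it was 0.42, and over all 8 fits with a library left out it stayed between 0.35 and 0.42 and was called each time. The labels do not say what the altered allele does to the summed count of Mef2c, so they set no direction for it. Directions are given by label throughout.

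**Figure D1:**
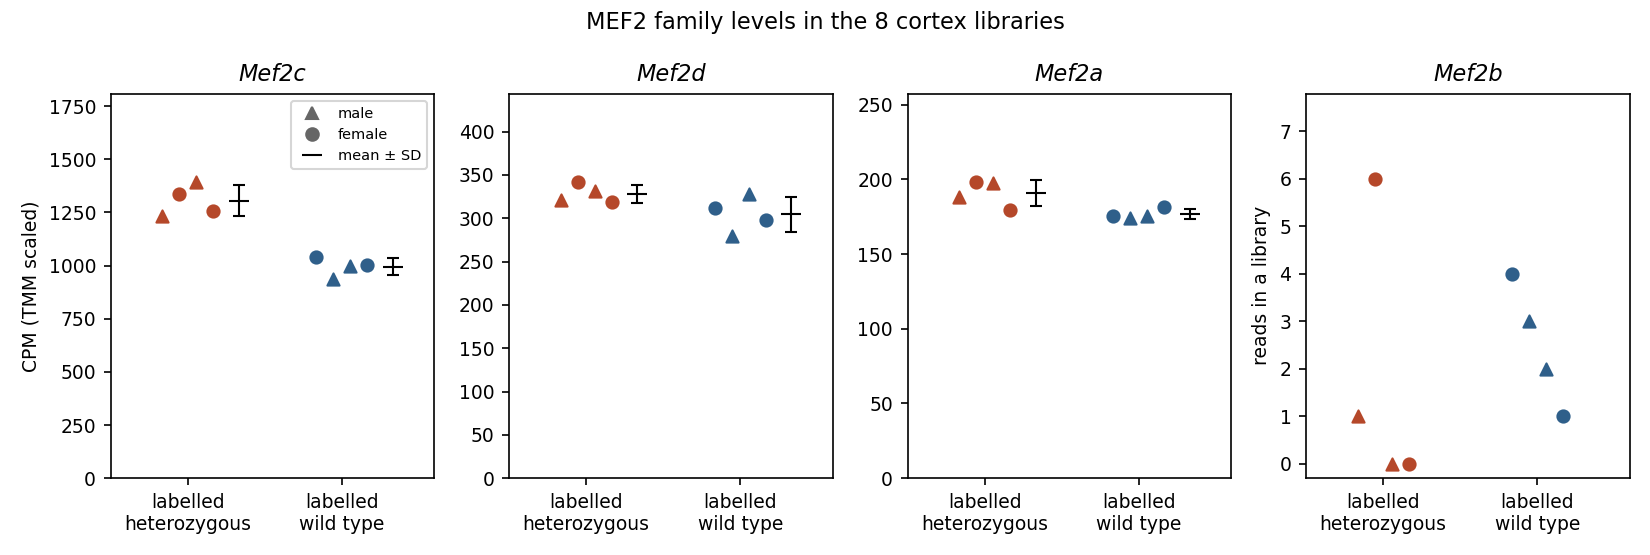
Level of each MEF2 gene in the 8 cortex libraries, in CPM after TMM scaling for Mef2c, Mef2d and Mef2a and in reads per library for Mef2b; triangles are males, circles females, and bars, not drawn for Mef2b, are the mean ± SD of 4 libraries. Mef2c is the gene whose groups do not overlap (1233 to 1391 CPM in libraries labelled heterozygous, 939 to 1038 CPM in those labelled wild type), and Mef2b has at most 6 reads.

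Mef2d, the member known for a broad distribution and for its part in neuronal survival, had 321, 342, 331 and 319 CPM in the libraries labelled heterozygous, against 312, 280, 328 and 298 CPM in those labelled wild type. Wild type replicate 3, at 328 CPM, lay inside the heterozygous range, so the groups overlapped. The log2 fold change was 0.11 with a 95% interval of 0.00 to 0.21, an unadjusted p of 0.0468 and an adjusted p of 0.672 by the quasi-likelihood test of edgeR. It ranged from 0.06 without wild type replicate 2 to 0.16 without wild type replicate 3, was 0.13 without heterozygous replicate 4, and was called in none of the 8 fits with a library left out.

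Mef2a, known from brain, heart and skeletal muscle and for its part in synapse restructuring, had 189, 198, 198 and 180 CPM in the libraries labelled heterozygous, against 176, 174, 176 and 182 CPM in those labelled wild type. Heterozygous replicate 4, the library with the Y-linked reads, was the lowest of its group and lay below wild type replicate 4. The log2 fold change was 0.11 with a 95% interval of 0.01 to 0.22, an unadjusted p of 0.0394 and an adjusted p of 0.639 by the quasi-likelihood test of edgeR. Without heterozygous replicate 4 it was 0.14, with an adjusted p of 0.476 in the same test. For both genes the upper end of the interval was 1.16-fold. An unadjusted p under 0.05 was found for 7.24% of all genes tested.

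Mef2b, which is known above all from B cells, had 1, 6, 0 and 0 reads in heterozygous replicates 1 to 4 and 4, 3, 2 and 1 reads in wild type replicates 1 to 4. The sums were 7 reads (95% exact Poisson interval 2.81 to 14.4) in the libraries labelled heterozygous and 10 reads (4.80 to 18.4) in those labelled wild type, or 0.103 and 0.146 CPM. Of the 7 reads, 6 came from heterozygous replicate 2. The ratio of the 2 levels was 0.704, with a counting interval of 0.228 to 2.05, so no difference was detectable at this depth. An exact permutation test of the CPM gave a p of 0.686, and edgeR without the filter an adjusted p of 0.971. A count of 0 in a library allows a level of up to 0.186 CPM. Borcs8, the gene whose exons it shares in part, had 14.6 CPM against 13.8 CPM and an adjusted p of 0.967 by the quasi-likelihood test of edgeR.

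**Figure D2:**
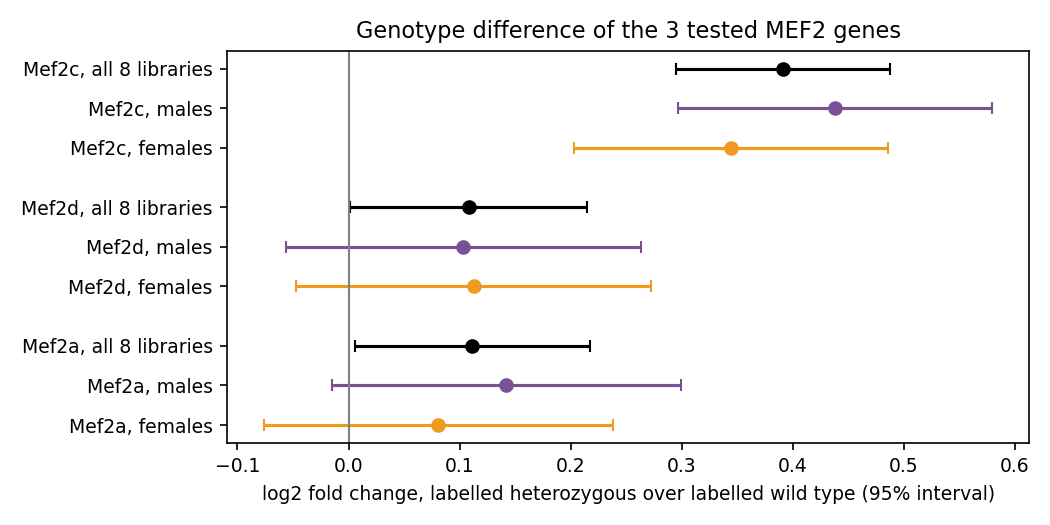
Log2 fold change of Mef2c, Mef2d and Mef2a, labelled heterozygous over labelled wild type, with 95% intervals, in the fit of all 8 libraries and for males and females from 1 fit with an interaction term. Mef2c sits at 0.39 (0.44 in males, 0.34 in females), and its interval lies above those of Mef2d and Mef2a in the fit of all 8 libraries.

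The ratio of 2 members within a library does not depend on how libraries are scaled, and tests the difference between members itself. The Mef2c to Mef2a count ratio was 6.54, 6.75, 7.04 and 6.98 in the libraries labelled heterozygous, against 5.91, 5.38, 5.69 and 5.52 in those labelled wild type. The Mef2c to Mef2d count ratio was 3.84, 3.91, 4.20 and 3.94 in the libraries labelled heterozygous, against 3.32, 3.35, 3.05 and 3.36 in those labelled wild type. Neither ratio overlapped between the genotypes. Each was 1.21-fold higher in the libraries labelled heterozygous, with a two-sided exact permutation p of 0.0286, the smallest that 4 against 4 libraries allow, and 0.0429 after Benjamini-Hochberg adjustment over the 3 ratios.

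The Mef2a to Mef2d count ratio was 0.587, 0.580, 0.597 and 0.564 in the libraries labelled heterozygous, against 0.562, 0.623, 0.536 and 0.609 in those labelled wild type. The heterozygous values lay inside the wild type range, and the exact permutation p was 1. Mef2c was thus the member whose proportion to both others differed between the genotypes.

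**Figure D3:**
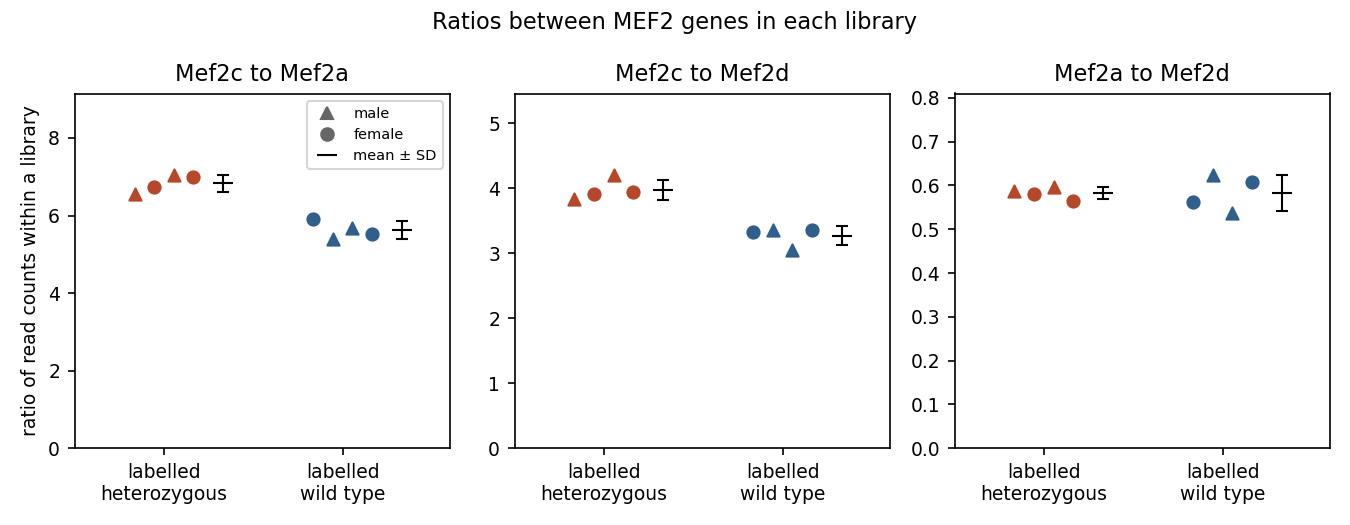
Read-count ratios between MEF2 genes in each library (y axis, ratio of raw counts), with triangles for males, circles for females and the mean ± SD of 4 libraries. Mef2c is higher relative to Mef2a and to Mef2d in libraries labelled heterozygous, without overlap between the genotypes, and the Mef2a to Mef2d ratio overlaps.

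Summed over the 4 genes, the family had 1824 ± 88.6 CPM in the libraries labelled heterozygous and 1476 ± 58.2 CPM in the wild type ones (SD, n = 4 each). Of the difference of 347 CPM, Mef2c made up 310 CPM (89.1%), Mef2d 23.7 CPM and Mef2a 14.2 CPM. Mef2a and Mef2d together had 519 ± 18.5 CPM against 481 ± 20.5 CPM (SD, n = 4 each). The share of Mef2c in the family's reads was 70.8% to 72.4% in the libraries labelled heterozygous and 66.5% to 68.0% in those labelled wild type.

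Compared per length, the order of the members was the same in all 8 libraries. On the scale of CPM per kilobase of each gene's longest coding transcript, Mef2c had a level of 208 ± 11.7 in the libraries labelled heterozygous and 158 ± 6.59 in those labelled wild type, Mef2d 60.8 ± 1.92 and 56.4 ± 3.77, Mef2a 34.5 ± 1.58 and 31.9 ± 0.593, and Mef2b 0.0759 ± 0.124 and 0.108 ± 0.0553 (SD, n = 4 each). No neighbours in this order overlapped in any library. With all annotated exons merged, which lengthens Mef2c and Mef2a more than Mef2d, the order was kept but Mef2c and Mef2d came close, at 63.3 ± 2.63 and 50.9 ± 3.40 CPM per kilobase in the libraries labelled wild type (SD, n = 4 each). On that scale the wild type level of Mef2c lay above 95.1% of the 13403 tested genes with a length, that of Mef2d above 93.6% and that of Mef2a above 70.0%.

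The spread between libraries exceeded counting error for Mef2c and Mef2d in both genotypes. The coefficient of variation of Mef2c was 5.61% in the libraries labelled heterozygous and 4.16% in those labelled wild type, where counting alone gives 0.672% and 0.766%. For Mef2d it was 3.16% and 6.68%, against 1.34% and 1.38% from counting. Mef2a varied by 4.57% in the libraries labelled heterozygous but by 1.86% in those labelled wild type, which is close to the 1.82% that counting alone gives. The standard errors of the log2 fold changes, 0.05 for each of the 3 genes, were smaller than that of 93.8% of the tested genes for Mef2d, 94.2% for Mef2a and 97.7% for Mef2c.

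Males and females were compared because the design balanced sex. In males, Mef2c had 1233 and 1391 CPM in the libraries labelled heterozygous, against 939 and 999 CPM in those labelled wild type. In females it had 1336 and 1255 CPM, against 1038 and 1003 CPM. The groups did not overlap in either sex, and in 1 fit of all 8 libraries the log2 fold changes were 0.44 in males and 0.34 in females, with adjusted p of 0.0197 and 0.0793 by the quasi-likelihood test of edgeR. The difference between these, male minus female, was 0.09 with a 95% interval of -0.11 to 0.29, and the quasi-likelihood test of edgeR gave a Benjamini-Hochberg adjusted p of 1 (unadjusted p 0.341). That interaction called 0% of all genes by the same edgeR test, with 366 genes (2.64%) at an unadjusted p under 0.05. For Mef2a the male minus female difference in effect was 0.06 (95% interval -0.16 to 0.28) and for Mef2d -0.01 (-0.24 to 0.22).

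Sex itself moved no tested member past the threshold, where 0.0288% of all genes were called and 2.92% had an unadjusted p under 0.05. The male over female log2 fold change was -0.03 for Mef2c (95% interval -0.12 to 0.07), 0.001 for Mef2a (-0.10 to 0.11) and -0.01 for Mef2d (-0.12 to 0.09).

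The runs of title numbers gave like values for Mef2c. Its log2 fold change was 0.38 in the lower run alone and 0.40 in the higher run alone, from 2 against 2 libraries in each, with adjusted p of 2.56e-07 and 1.59e-05 by the quasi-likelihood test of edgeR. With sex and genotype as terms, so few libraries hardly measure their own spread, and the fit draws it largely from other genes. These adjusted p are therefore no stronger than that from all 8 libraries. Mef2d had 0.17 in the lower run and 0.06 in the higher run, and Mef2a 0.15 and 0.08, without a call in either. Each run holds 1 library of either genotype per sex, which gives 4 sets matched for sex and run. The heterozygous library was the higher in 4 of 4 sets for Mef2c and for Mef2d and in 3 of 4 for Mef2a, where 8.16% of all genes tested were higher in all 4. With these sets as a block, Mef2d (0.11, adjusted p 0.289) and Mef2a (0.11, adjusted p 0.368) were again not called by the quasi-likelihood test of edgeR. The higher over lower run log2 fold changes were 0.03 for Mef2c, 0.03 for Mef2d and -0.002 for Mef2a.

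The nearest tested genes on either side of each member in the annotation were not called. Cetn3, a centrin gene 1706878 bases from Mef2c, had a log2 fold change of 0.13, and Tmem161b, a membrane protein gene 555215 bases away on the other side, had 19.5 CPM against 24.98 CPM, a log2 fold change of -0.36 (adjusted p 0.130 by the quasi-likelihood test of edgeR). Next to Mef2a, Lysmd4 had -0.07 and Lrrc28 -0.01. Next to Mef2d, Apoa1bp had -0.15 and Tsacc, at under 1 CPM, 0.56. Next to Mef2b, Borcs8 had 0.08 and Tmem161a 0.04.

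The promoter windows were searched because MEF2 genes are themselves described as targets of MEF2 proteins. RefSeq gives 6 windows for the family in GRCm38.p6, each of 300 bases, 250 before to 50 after a transcript start, with 3 of them for Mef2c. The MEF2 consensus site (a pyrimidine, TA, a run of A or T, TA and a purine; its own reverse complement, so both strands are covered) was found in 1 of the 6, that of Mef2a, and 3.19% of all 32851 windows hold it. In the Mef2a window the match begins 2 bases before the annotated start and reaches into the transcript. The windows of Mef2a (chr7:67372809-67373108, minus strand) and of the most upstream Mef2c start (chr13:83503784-83504083, plus strand) are shown as the one with a match and the one of the member that rose, 5′ to 3′ along each gene, with the match in capitals.
Mef2a promoter: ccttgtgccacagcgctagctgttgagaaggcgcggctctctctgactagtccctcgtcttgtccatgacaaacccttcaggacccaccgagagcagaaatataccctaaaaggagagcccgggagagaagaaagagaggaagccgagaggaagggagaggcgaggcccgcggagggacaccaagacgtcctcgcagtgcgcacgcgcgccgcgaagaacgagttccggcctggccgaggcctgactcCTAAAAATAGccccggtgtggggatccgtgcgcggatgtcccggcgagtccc
Mef2c promoter: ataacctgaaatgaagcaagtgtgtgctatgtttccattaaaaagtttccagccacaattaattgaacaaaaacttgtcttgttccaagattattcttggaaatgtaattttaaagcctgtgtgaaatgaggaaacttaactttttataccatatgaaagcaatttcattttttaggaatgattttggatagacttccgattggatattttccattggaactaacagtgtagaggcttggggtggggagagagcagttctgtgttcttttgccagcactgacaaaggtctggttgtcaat
A match describes the letters of the window and no binding was measured.

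No gene listed as a MEF2 partner or regulator was called. Of the 4 class IIa histone deacetylases, the repressors that bind MEF2 directly, none was called, and all 4 log2 fold changes lay below 0, with a median of -0.08 where the median of all genes was 0.00. Hdac9, a deacetylase gene that is also a described MEF2 target, had 40.5, 51.3, 45.5 and 46.3 CPM in the libraries labelled heterozygous, against 56.7, 59.0, 49.6 and 54.1 CPM in those labelled wild type. The groups overlapped through heterozygous replicate 2 and wild type replicate 3, and the log2 fold change of -0.26 had an adjusted p of 0.190 by the quasi-likelihood test of edgeR. Of 8 other corepressor genes, such as Ncor1, Hdac3 and Cabin1, none was called, with a median of 0.01 and a range of -0.09 (Nrip1) to 0.07 (Ankra2).

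Of 13 coactivators and partner factors, such as the histone acetyltransferase genes Ep300 (-0.03) and Crebbp (0.002), none was called, and the median log2 fold change was 0.002. Nfatc2, which codes for a calcineurin-dependent factor that cooperates with MEF2, stood lowest, with 10.3, 7.31, 7.64 and 8.62 CPM in the libraries labelled heterozygous, against 13.3, 11.6, 12.4 and 10.8 CPM in those labelled wild type. These groups did not overlap, as in 4.55% of all genes tested in either direction. The log2 fold change of -0.51 did not pass, with an adjusted p of 0.140 by the quasi-likelihood test of edgeR. Its relative Nfatc3 had 0.15. Kat2b, another gene of this list, lay the other way without overlap, at 21.9 CPM against 19.9 CPM (adjusted p 0.860 in the same edgeR test).

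The signalling genes upstream of MEF2 also gave no call. Calcineurin, the calcium-dependent phosphatase, and its regulators had a median of 0.04 over 6 genes, from -0.14 for the calcineurin inhibitor gene Rcan2 to 0.08 for the regulatory subunit gene Ppp3r1. The 15 calcium-dependent and related kinases that act on MEF2 or class IIa deacetylases had a median of 0.04, with Camkk1, a kinase of calcium/calmodulin kinases, highest at 0.17 and Camk1 lowest at -0.11. The 8 MAP kinases and their activators had a median of -0.005, with the MEF2 kinase genes Mapk14 (p38 alpha) at -0.003 and Mapk7 (ERK5) at 0.06. The 9 other modifying enzymes had a median of 0.02, with Cdk5, a kinase that inactivates MEF2 in neurons, at 0.05 and its activator Cdk5r1 at -0.08.

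**Figure D4:**
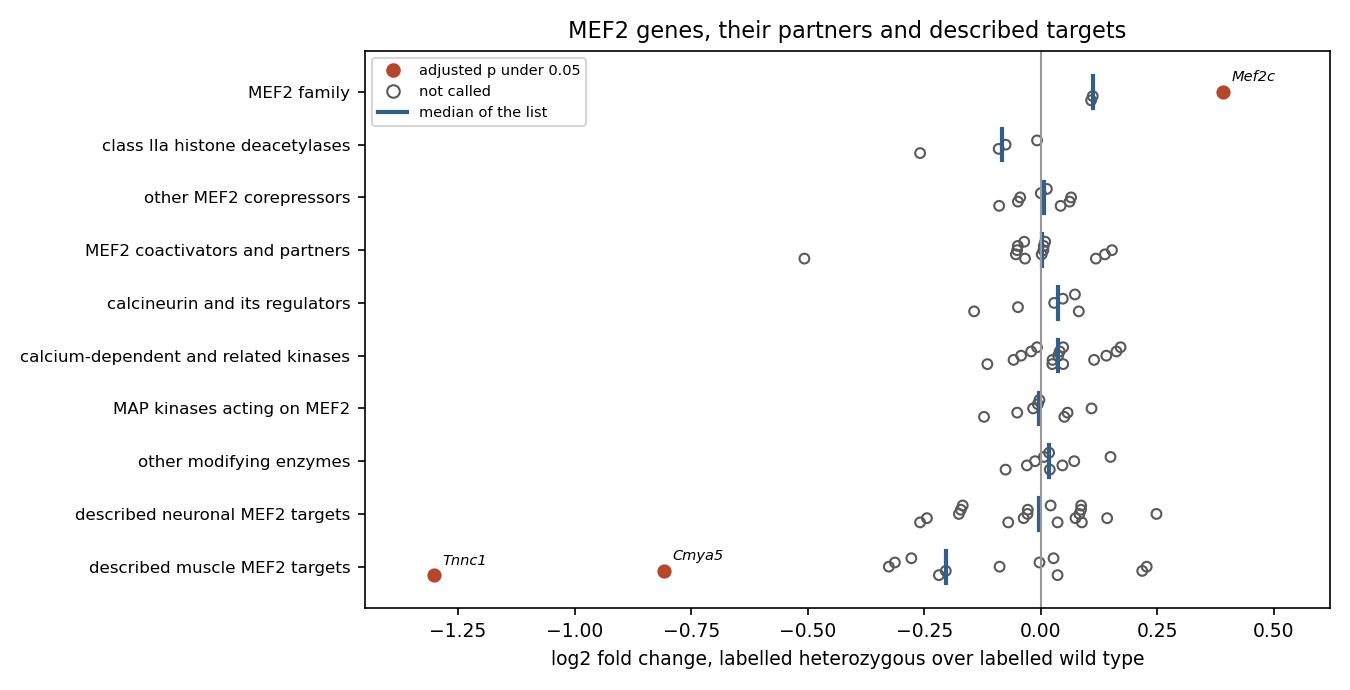
Log2 fold change, labelled heterozygous over labelled wild type, of each tested gene of the MEF2 family, its partner groups and its described targets (1 point per gene; vertical offsets separate points and carry no value). Filled points were called at an adjusted p under 0.05, bars are list medians, and the called genes are Mef2c (0.39), Tnnc1 (-1.30) and Cmya5 (-0.81).

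Described targets of MEF2 were listed by tissue. Of 18 described neuronal targets, none was called, 9 lay above 0 and the median log2 fold change was -0.003. Nr4a1, an orphan nuclear receptor gene and classical MEF2 target, had 111 CPM against 104 CPM, and Arc, an activity-induced synaptic gene, had 261 CPM against 218 CPM, a log2 fold change of 0.25 (adjusted p 0.981 by the quasi-likelihood test of edgeR). Bdnf, a neurotrophin gene, had -0.24 and Homer1, a postsynaptic scaffold gene, -0.18.

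Of 22 described muscle targets, 13 passed the filter on low counts and 2 held no read. Among the 13, 2 were called, both lower, against 0.137% of all genes called lower, and the median log2 fold change was -0.20. The list was chosen with earlier results of these data known, and the 9 genes that did not pass include myogenin (Myog) and creatine kinase (Ckm), the textbook muscle targets.

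Tnnc1, the gene of slow skeletal and cardiac troponin C, had 7.88, 7.02, 3.60 and 4.87 CPM in the libraries labelled heterozygous, against 12.8, 15.4, 12.4 and 17.1 CPM in those labelled wild type. The groups did not overlap, and the difference was -1.30 ± 0.20 on the log2 scale (SE), adjusted p 0.0142 by the quasi-likelihood test of edgeR; without wild type replicate 2 the adjusted p was 0.0685 in the same test. Cmya5, which codes for the muscle protein myospryn, had 5.04, 4.00, 4.72 and 3.86 CPM in the libraries labelled heterozygous, against 8.26, 7.95, 7.22 and 7.33 CPM in those labelled wild type. Its log2 difference was -0.81 ± 0.16 (SE), adjusted p 0.0286 by the quasi-likelihood test of edgeR, and it kept its call in 2 of the 8 fits with a library left out, those without heterozygous replicate 1 and without wild type replicate 3. The other 11 tested muscle targets lay between -0.33 (Des, desmin) and 0.23 (Myh6, a cardiac myosin gene).

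Genes that follow the members over the 8 libraries were sought among 8614 other tested genes, those whose mean log2 CPM was 4 or more. The gene most like Mef2c was Gria1, an AMPA glutamate receptor subunit gene, with a Pearson r of 0.99 and a Spearman rho of 0.98, as a description over 8 libraries that share the 2 genotype groups. Gria1 had 373, 383, 407 and 374 CPM in the libraries labelled heterozygous, against 341, 316, 337 and 326 CPM in those labelled wild type. Like Mef2c, it was highest in heterozygous replicate 3 and lowest in wild type replicate 2, but it was picked for such likeness. Its own log2 fold change was 0.22 (adjusted p 0.0454 by the quasi-likelihood test of edgeR), a call kept in 1 of 8 fits with a library left out, that without heterozygous replicate 1, and lost by limma-voom (adjusted p 0.0662). The next were Fam110b (r 0.97) and the neuronal enolase gene Eno2 (0.95).

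The genes most like Mef2a were Adra2c, an adrenergic receptor gene (r 0.95), Edem3 (0.93) and Maoa, a monoamine oxidase gene (0.93), and those most like Mef2d were Acap3 (0.97), Nisch (0.96) and Epm2aip1 (0.96). After the genotype means were taken out, other genes led the search: Arl14ep, Ubqln4 and Borcs6 for Mef2c (0.96 each), Timm44 (0.98), Smad4 (0.97) and Ppp6r3 (0.96) for Mef2a, and Cdipt (0.99), Sult4a1 (0.99) and Banf1 (0.98) for Mef2d. Among the members themselves, r within genotypes was 0.66 for Mef2c with Mef2a, 0.64 for Mef2c with Mef2d and 0.34 for Mef2a with Mef2d. All these values of r are descriptions over 8 libraries, and those of the named like genes are the highest among 8614.

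Cell type markers were set beside the Mef2c difference, since neurons and microglia both make it. Of 13 tested microglia markers none was called, 9 lay above 0, the median log2 fold change was 0.14, and their summed level was 340 to 383 CPM in the libraries labelled heterozygous and 330 to 351 CPM in those labelled wild type. The complement gene C1qa had 33.8 CPM against 27.2 CPM (adjusted p 0.173 by the quasi-likelihood test of edgeR) and the receptor gene Csf1r 117 CPM against 104 CPM (adjusted p 0.346). With Trem2 and P2ry13 they were the 4 of 13 that lay higher without overlap, against 2.16% of all genes tested. P2ry12 (-0.06), Siglech (-0.05), Gpr34 (-0.24) and Itgam (-0.18), also microglia markers, had log2 fold changes below 0, with overlap. Of 11 excitatory neuron markers none was called, 9 lay above 0 and the median was 0.06. Neurod6, a gene of these neurons, had 149 CPM against 125 CPM with overlap (adjusted p 0.109 by the quasi-likelihood test of edgeR). Cux2 lay the other way without overlap, at 171 CPM against 186 CPM (adjusted p 0.570 in the same edgeR test). In either direction, 4.55% of all genes tested did not overlap. Of 10 interneuron markers none was called, 5 lay above 0 and the median was 0.02. Lamp5 had 201 CPM against 242 CPM without overlap (adjusted p 0.0607 in the same edgeR test). Sst, the somatostatin gene, had 250 CPM against 220.0 CPM with overlap (adjusted p 0.616 in that edgeR test). No listed marker with a row was at 0 reads. The part of these in the Mef2c difference was not tested.

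Markers of other sources were also measured. Astrocyte, oligodendrocyte, endothelial and pericyte markers had no call and medians of -0.02, 0.01, -0.12 and -0.02, although summed astrocyte levels did not overlap, at 4205 to 4513 CPM in the libraries labelled heterozygous and 4534 to 4608 CPM in those labelled wild type. Slc1a2, a glutamate transporter gene, made up most of that sum (2676 CPM against 2821 CPM), while Gfap, the gene of an astrocyte filament protein, lay the other way without overlap, at 111 CPM against 86.6 CPM (adjusted p 0.570 by the quasi-likelihood test of edgeR). All 5 red blood cell markers lay below 0, with a median of -0.40, summed levels of 35.2 to 74.7 CPM in the libraries labelled heterozygous and 63.9 to 112 CPM in those labelled wild type, and no call. All 8 tested striatum markers lay above 0, with a median of 0.21, no call, and summed levels of 272 to 380 CPM against 267 to 320 CPM. Hippocampus and thalamus markers had a median of 0.22 over 8 genes, 1 of them called, higher, against 0.13% of all genes, Fibcd1 at 17.7 CPM against 10.4 CPM. This list too was chosen with earlier results of these data known. The summed levels of the listed markers, 268 to 277 CPM in the libraries labelled heterozygous and 242 to 248 CPM in those labelled wild type, did not overlap. Of the 8 tested genes, 7 lay above 0, such as Ociad2, with 84.5 CPM against 71.3 CPM. Rora, the listed gene of highest level, lay below 0, at 89.3 CPM against 93.5 CPM. The part of tissue taken with the cortex in the Mef2c difference was not tested.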

How the data were processed

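RNA of the whole cortex was measured in 8 libraries, 4 labelled heterozygous and 4 labelled wild type. The deposited table holds unnormalized counts of reads for each gene symbol. STAR 2.5.2b, HTSeq and the build mm10 are named in the submitters' processing notes. Annotation and strand setting: not given in the sources used here. Of the 22000 rows, 19642 matched GENCODE release M21 by symbol and 242 by an older symbol.

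Genes were kept with filterByExpr by genotype (minimum count 10), leaving 13879 genes with 99.95% of all counts, and TMM factors scaled the libraries. Genes were tested with the quasi-likelihood test of edgeR 4.0.16 (R 4.3.3) over all these genes with sex and genotype as terms, called at a Benjamini-Hochberg adjusted p under 0.05. Ratios between members were tested by two-sided exact permutation over libraries, with 0.5 added to each count. The fit was tested on simulated data. The labels give each library its own number without stating that these are separate mice. The tests therefore set a difference against the spread between these libraries. In edgeR that spread is estimated partly from other genes. Poisson intervals and the floor of 3 reads cover counting error only.

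Alternatives were DESeq2 1.42.0 (size factors, Wald test), upper-quartile scaling, limma-voom (limma 3.58.1), other filters and covariates, each sex and each run of title numbers alone, each library left out and, chosen after seeing the data, the 4 sets of sex and run as a block. Named genes are the 4 members, up to 4 called genes of each list (or up to 2 of smallest p), the 3 genes most like each member over the libraries, and the nearest tested genes. Ncor1, Cabin1, Ankra2, Ep300, Crebbp, Nfatc3, Mapk14, Mapk7, Cdk5, Nr4a1, Arc, Bdnf, Homer1, Trem2, P2ry13, Cux2, Slc1a2, Ociad2, Rora, Des, Myh6, Myog and Ckm are named outside this rule, after their values were seen. So are P2ry12, Siglech, Gpr34, Itgam and Kat2b. The members and the lists were chosen with earlier results of these data known. The search for like genes added 0.5 CPM before log2.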

Additional observations from a re-analysis of the deposited data

Results flagged for a closer look

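The Mef2b level of heterozygous replicate 2, 0.348 CPM from 6 reads, stood above the other 3 libraries labelled heterozygous. Those held 1, 0 and 0 reads, and the level passed Dixon's critical value only narrowly. Dixon's critical value for 4 samples, 0.829, is passed by chance in about 1 in 20 groups of normally distributed values, and 8 groups were looked at. That rate does not carry over to counts as low as these.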

How the results depend on the processing

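Mef2c kept its direction and its call under all 21 alternatives, with log2 fold changes of 0.35 to 0.44 and adjusted p up to 0.0474, that in females alone. The interaction fit of all 8 libraries is not among these, and there the female effect of Mef2c was not called (0.34, adjusted p 0.0793 in edgeR). Mef2a (0.08 to 0.15) and Mef2d (0.06 to 0.17) stayed above 0 and uncalled under the same 21. The ratios of Mef2c to Mef2a (0.26 to 0.30 on the log2 scale with a library left out) and to Mef2d (0.25 to 0.30) kept their direction. Their groups do not overlap, so leaving out a library cannot raise the permutation p. The ratio of Mef2a to Mef2d moved around 0 (-0.0386 to 0.0338). The male over female log2 fold change with a library left out was -0.0324 to 0.0234 for Mef2a, -0.07 to -0.001 for Mef2c and -0.0600 to 0.0308 for Mef2d, with no call. Mef2b, left out of the test by the filter, had a log2 ratio of -2.89 to -0.0663 with a library left out, lowest without heterozygous replicate 2, so its value rests on that library.

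The count of called genes, 37, was 82 with no filter, 80 with the DESeq2 Wald test and 72 with the run of title numbers as a term. With the 4 sets matched for sex and run as a block, chosen after seeing the data, it was 124. Each of these included all 37. It was 7 in males alone, 6 in females alone, 164 in the lower run alone and 70 in the higher run alone, with 4 libraries in each. With a library left out it was 19 to 80. Leaving out wild type replicate 2 gave 19 and wild type replicate 1 gave 23. Leaving out heterozygous replicate 2 gave 24 and heterozygous replicate 1 gave 80. In males alone Tnnc1 (-1.27, adjusted p 0.436), Fibcd1 (0.88, adjusted p 0.201), Cmya5 (-0.63, adjusted p 0.9996) and Gria1 (0.26, adjusted p 0.709) lost their calls in edgeR. In females alone Tnnc1 kept its call (-1.33, adjusted p 0.0460). Cmya5 (-0.99, adjusted p 0.245), Fibcd1 (0.66, adjusted p 0.286) and Gria1 (0.18, adjusted p 0.594) lost theirs in females alone. Library-by-library checks of Tnnc1, Cmya5, Gria1 and Fibcd1 were chosen after seeing the data. The cause of these differences in count was not tested. The labels pair no libraries by number: the replicate numbers follow accession order and the title numbers are not shared between genotypes. Libraries were matched only by sex and run, in the 4 sets fitted as a block. Depth limits Mef2b, which had at most 6 reads in a library.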
